A study of Homo sapiens with 3 samples.

Results

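The 10 genes described here make and load the peptides of MHC class I: TAP1, TAP2, TAPBP, PSMB8, PSMB9, PSME1, PSME2, B2M, ERAP1 and CALR. They are 10 of 20037 protein-coding genes on the assembled chromosomes, and were chosen by earlier results of these same summit lists, where several of them had a SOX4 summit nearby. Their being near a summit is therefore a description and no finding. The data are 3 libraries of chromatin immunoprecipitation and sequencing (ChIP-seq) for SOX4, a high-mobility-group transcription factor, in BT549, an established line of human triple-negative breast cancer cells, at passage 5. All 3 were made with the same SOX4 antibody, and no treatment, second cell line, input or IgG library was analysed here. Nothing in the labels ties the libraries to separate cultures, so differences between them may be technical. A summit is the 1-bp position at which a peak is highest, and its score is the −log10 of a p or q value that the authors deposited.

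MHC class I molecules show short peptides from inside the cell to CD8 T cells. The proteasome cuts proteins into peptides, the TAP transporter carries them into the endoplasmic reticulum, peptidases trim them, and chaperones help to load them onto the heavy chain and its light chain. Interferons raise many of these genes through factors that bind the interferon-stimulated response element, and tumours can lose them. SOX proteins bind short AT-rich sites close to the letters ACAAAG or ACAATG, called the SOX core here. The series design names TAP1, TAP2 and PSMB9 among the genes with SOX4 peaks in their regulatory regions.

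The main picture is set by 1 library. In replicate 3, 10 of the 10 genes had a summit in the gene or within 50 kb, against 30.9% of all coding genes. Replicate 1 gave 1 of 10, CALR (9.19% of all coding genes), and replicate 2 gave 1 of 10, ERAP1 (8.46%). Over any library the count was 10 of 10 (35.0%), and without replicate 3 it was 2 of 10 (13.6%). A place found in at least 2 libraries, with summits at most 200 bp apart, was near 0 of 10 genes within 50 kb (6.53%). Within 5 kb the counts were 7 of 10 in replicate 3 (17.9% of all coding genes), 1 of 10 in replicate 1 (4.6%) and 1 of 10 in replicate 2 (4.53%). Any library gave 8 of 10 (20.4%), and places of at least 2 libraries gave 0 of 10 (3.47%). The 10 genes lie in gene-dense stretches, with a median of 4 other coding genes within 50 kb (range 3 to 11), against 2 for all coding genes. The part of gene density in these counts was not tested.

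The position of those summits relative to the gene starts belongs to the same nearness on which the genes were chosen, and is a description too. Measured from the start sites of RefSeq's GRCh38.p14 promoter table, which holds all 10 genes, 3 of 10 had a summit within 1 kb of a start of their own: TAP2, B2M and ERAP1. All of these came from replicate 3, where the same rule was met by 14.4% of the 15842 coding genes in the table (16.3% in any library). The other 7 genes were counted through summits at the starts of neighbours, past their own 3′ end, or farther upstream.

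**Figure D1:**
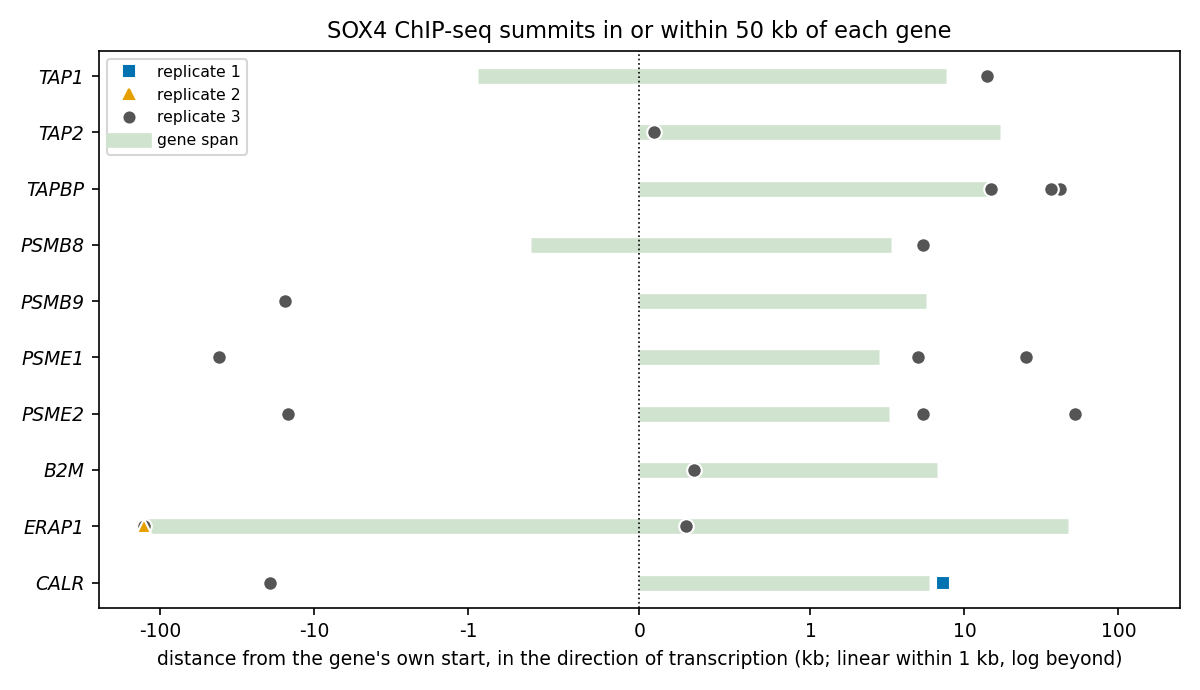
Summits in or within 50 kb of each gene (x axis, distance from the start of the gene nearest to its summits in the direction of transcription, in kb, linear within 1 kb and logarithmic beyond). Bars are gene spans; squares, triangles and circles are replicates 1, 2 and 3, and TAP2, B2M and ERAP1 each have 1 circle just past the start. The second ERAP1 circle lies far upstream, and its summit is 121.2 kb from the other ERAP1 start, which is not the one drawn. The circles of the other genes lie beyond the gene or upstream of it.

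The promoters of the 3 genes with a summit just inside the start are shown with TAP1, which had none there, and with EMC9, at whose start the summit of PSME1 and PSME2 lies. CALR is shown because its window holds the SOX core. Each runs 5′ to 3′ in the direction of the gene, covering the 250 bases before the start and the first 50 of the gene, as RefSeq gives them for GRCh38.p14. Capitals mark exact matches, on either strand, to the SOX core or to the core of the interferon-stimulated response element, taken here as a pair of GAAA with any 2 bases between.
TAP2 (chr6:32838690-32838989, minus strand): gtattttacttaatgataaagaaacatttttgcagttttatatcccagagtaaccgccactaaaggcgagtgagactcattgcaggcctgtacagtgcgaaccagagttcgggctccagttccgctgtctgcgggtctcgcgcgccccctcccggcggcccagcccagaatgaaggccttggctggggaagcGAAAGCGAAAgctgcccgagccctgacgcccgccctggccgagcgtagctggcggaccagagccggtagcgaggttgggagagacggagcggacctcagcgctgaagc
B2M (chr15:44711267-44711566, plus strand): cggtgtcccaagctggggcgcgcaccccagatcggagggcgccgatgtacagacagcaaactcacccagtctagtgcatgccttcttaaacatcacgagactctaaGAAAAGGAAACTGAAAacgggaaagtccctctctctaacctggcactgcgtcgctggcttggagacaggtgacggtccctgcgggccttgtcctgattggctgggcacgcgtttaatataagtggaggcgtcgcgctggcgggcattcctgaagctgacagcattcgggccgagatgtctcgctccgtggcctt
ERAP1 (chr5:96807896-96808195, minus strand): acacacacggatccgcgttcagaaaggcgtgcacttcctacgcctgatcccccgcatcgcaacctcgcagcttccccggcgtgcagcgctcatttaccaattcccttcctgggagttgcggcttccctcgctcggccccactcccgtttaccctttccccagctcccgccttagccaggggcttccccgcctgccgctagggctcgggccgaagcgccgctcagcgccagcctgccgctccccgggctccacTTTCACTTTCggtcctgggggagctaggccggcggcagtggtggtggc
TAP1 (chr6:32853655-32853954, minus strand): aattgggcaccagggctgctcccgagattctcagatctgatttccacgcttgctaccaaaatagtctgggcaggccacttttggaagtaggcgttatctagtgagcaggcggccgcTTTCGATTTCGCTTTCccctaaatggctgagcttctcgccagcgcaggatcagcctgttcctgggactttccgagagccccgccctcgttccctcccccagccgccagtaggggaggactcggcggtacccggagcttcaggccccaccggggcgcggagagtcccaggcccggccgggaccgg
EMC9 (chr14:24141542-24141841, minus strand): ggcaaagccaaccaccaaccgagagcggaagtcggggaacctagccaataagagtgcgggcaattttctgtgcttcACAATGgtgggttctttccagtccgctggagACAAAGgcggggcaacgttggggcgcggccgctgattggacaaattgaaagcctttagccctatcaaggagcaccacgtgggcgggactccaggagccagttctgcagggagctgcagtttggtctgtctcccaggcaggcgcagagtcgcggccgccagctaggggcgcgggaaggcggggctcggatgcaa
CALR (chr19:12938359-12938658, plus strand): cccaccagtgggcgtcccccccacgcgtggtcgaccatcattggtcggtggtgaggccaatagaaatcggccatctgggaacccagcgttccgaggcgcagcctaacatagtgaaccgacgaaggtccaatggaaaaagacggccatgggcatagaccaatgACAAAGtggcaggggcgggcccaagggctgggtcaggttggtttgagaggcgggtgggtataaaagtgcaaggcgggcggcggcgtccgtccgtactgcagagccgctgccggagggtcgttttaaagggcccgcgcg

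The interferon element was found in most of these promoters. Of the 10 genes, 8 held at least 1 match to its core in a promoter window (13 windows in all, since some genes have 2 starts), against 4.16% of the 15842 coding genes in the table. TAPBP, PSMB8, PSME1 and PSME2 held it besides TAP1, TAP2, B2M and ERAP1, and PSMB9 and CALR did not. The matches are printed here on the strand that carries GAAA, with up to 8 bases on either side. The search fixed the letters of both GAAA, so only the 2 bases between and the flanks could differ.
TAP1: atttagggGAAAGCGAAAtcgaaagc
TAP2: ggggaagcGAAAGCGAAAgctgcccg
TAPBP: aggaaagtGAAAGTGAAAggaggaag
PSMB8: gaggaagtGAAAGCGAAAgccacaga
PSME1: cgcgaaggGAAAGCGAAAgcggtagg
PSME2: tggggagtGAAAGCGAAAgcccgggc
B2M: aagaaaagGAAACTGAAAacgggaaa
ERAP1: ccaggaccGAAAGTGAAAgtggagcc
TAP1, TAPBP and B2M each had 2 matches that overlap each other, and 1 of the 2 is printed. The match began 58 bases before the start in TAP2, 28 in PSME2, 14 in TAPBP and 4 before the inner of the PSMB8 starts. In PSME1 and ERAP1 it lay just after the start. All 3 genes with a summit within 1 kb of an own start held it, as did 5 of the 7 others. Among all coding windows, 2.02% of those with a summit within 1 kb of the start held it, and 3.37% of the others.

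The SOX core was found for 2 of the 10 genes, CALR and ERAP1, against 24.7% of coding genes. In ERAP1 it lay in the window of the other start site, 6.20 kb upstream of the start that has the summit. The windows of TAP2 and B2M, and of ERAP1 at the start with the summit, held no match. Those windows end 50 bases into the gene and the summits lie farther in, so the letters under the summits were not read. The GC box, GGGCGG, was found for 8 of the 10 genes (64.3% of coding genes), the CCAAT box, letters CCAAT, for 5 (42.1%), the TATA box, letters TATAAA, for 2 (12.4%) and the cAMP response element, TGACGTCA, for 0 (3.0%). All were searched on both strands. The CCAAT match of TAP1 and that of PSMB9 are the same bases, since their windows overlap. Windows of the 10 genes had a median GC content of 62.7%, close to the 62.3% of all windows.

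**Figure D2:**
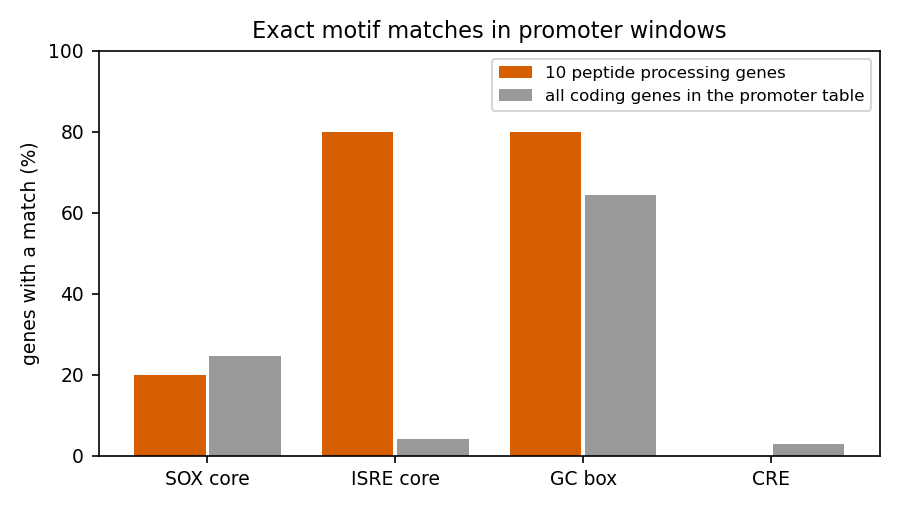
Share of genes (y axis, percent) with at least 1 exact match in a promoter window, for 4 motifs (x axis), in the 10 genes and in the 15842 coding genes of the promoter table. The interferon element (ISRE core) stands at 8 of 10 genes against 4.16%, and the SOX core at 2 of 10 against 24.7%.

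The first group by role is the TAP transporter, a pair of half-transporters encoded by TAP1 and TAP2. TAP2 (chromosome 6, 32821831 to 32838739, minus strand) had its nearest summit at 3189 kb in replicate 1 and 1455 kb in replicate 2, and inside the gene in replicate 3. That replicate 3 summit, at 32838654, lay 85 bp downstream of the TAP2 start. Its score of 3.55 ranked 4180 of 4430, and only 5.64% of that list scored lower. TAP1 (32845209 to 32853704, minus strand) had no summit of its own. Its nearest were at 3174 kb in replicate 1 and 1478 kb in replicate 2, and in replicate 3 the nearest was the TAP2 summit, 6.56 kb past the 3′ end of TAP1 and 14.1 kb from its nearer start.

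The immunoproteasome subunits PSMB8 and PSMB9, which replace standard catalytic subunits of the proteasome when interferon is present, share this stretch of the MHC region with TAP1 and TAP2. The same replicate 3 summit was the nearest of that library to both. It lay 2063 bp past the 3′ end of PSMB8 (32840717 to 32844679, minus strand), 5.39 kb from the nearer PSMB8 start. It lay 15.5 kb upstream of PSMB9 (32854192 to 32859851, plus strand). PSMB9 and TAP1 are divergent genes whose outer starts are 488 bp apart, and no library had a summit within 10 kb of either start. In replicates 1 and 2 the nearest summits to PSMB8 were 3183 kb and 1473 kb away, and to PSMB9 3168 kb and 1487 kb. A single low-ranked summit of 1 library thus stands behind all 4 of these genes. With a score of 5 or more required, the nearest summit to TAP2 was 433476 bp away.

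**Figure D3:**
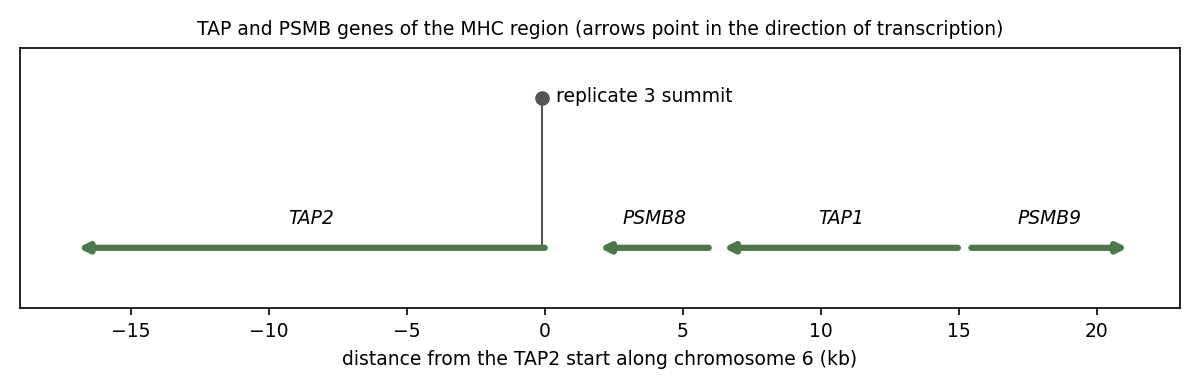
Map of the TAP2, PSMB8, TAP1 and PSMB9 genes (x axis, distance from the TAP2 start along chromosome 6, in kb). Arrows point in the direction of transcription, and the single summit, of replicate 3, lies 85 bp inside TAP2.

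PSME1 and PSME2 encode the 2 subunits of PA28, a proteasome activator. They are neighbours on chromosome 14 (24136194 to 24138962, plus strand, and 24143365 to 24146610, minus strand), with starts 10416 bp apart and transcribed towards each other. The gene between them, EMC9, encodes a subunit of the endoplasmic reticulum membrane complex. The replicate 3 summit that both genes share, at 24141216, lay 375 bp downstream of the EMC9 start. It was 2254 bp past the 3′ end of PSME1 and 2149 bp past that of PSME2, and scored 4.93 (rank 2784). From their own starts the distances were 5.02 kb and 5.39 kb. Starts within 1 kb of a summit counted within 50 kb of the 10 genes had 16 promoter windows. Of these, that of EMC9 was the 1 with a SOX core, with 2 matches. The SOX core was found in 20.2% of all coding windows, and in 15.4% of those with a summit within 1 kb of the start.

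A pair of further replicate 3 summits lay within 50 kb of both activator genes, each at the start of another gene. One was 141 bp downstream of the start of IRF9, which encodes the DNA-binding subunit of the interferon-activated complex ISGF3. It scored 3.91 (rank 3972), and was 14.8 kb from PSME2 and 22.4 kb from PSME1. The other was 231 bp downstream of the start of PCK2, a mitochondrial enzyme gene of gluconeogenesis. It scored 5.72 (rank 1916), and was 41.7 kb from PSME1 and 48.8 kb from PSME2. In replicates 1 and 2 the nearest summits to PSME1 were 1071 kb and 3681 kb away, and to PSME2 1063 kb and 3688 kb.

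ERAP1, the aminopeptidase that trims peptides in the endoplasmic reticulum, had the highest score within 50 kb of any of the 10 genes. Its RefSeq span on chromosome 5 (96760813 to 96935854, minus strand) is 175042 bp long, and the table gives start sites at 96807945 and 96814145. The replicate 3 summit at 96807671 lay 274 bp downstream of the first of these, with a score of 7.12 (rank 1014), above 76.9% of that list. The far upstream end of the span meets the start of LNPEP, which encodes another peptide-trimming aminopeptidase. There the replicate 2 summit, at 96936070, lay 10 bp upstream of the LNPEP start and 216 bp outside ERAP1, and scored 4.31 (rank 1346 of 1713). A replicate 3 summit at 96935339 lay 741 bp upstream of LNPEP, and scored 5.29 (rank 2453). These 2 summits were 731 bp apart, too far to count as 1 place, and were 121.9 kb and 121.2 kb from the nearer ERAP1 start. Both lay inside LOC124901030, a coding gene on the other strand from LNPEP, whose start was the nearest, at 5 bp (replicate 2) and 736 bp (replicate 3). The count of ERAP1 in replicate 2 thus rests on a summit at the starts of LNPEP and LOC124901030.

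B2M encodes beta-2-microglobulin, the light chain that all MHC class I heavy chains need. On chromosome 15 (44711517 to 44718145, plus strand), its nearest summit was 423 kb away in replicate 1 and 4929 kb in replicate 2. In replicate 3 a summit lay inside the gene at 44711839, 322 bp downstream of the start, with a score of 5.66 (rank 2138), above 51.4% of that list. PATL2, on the minus strand, starts nearby in the other direction, and the summit was 449 bp upstream of its nearer start. No other summit lay within 50 kb of B2M.

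TAPBP encodes tapasin, which bridges TAP and the heavy chain during loading. On chromosome 6 (33299694 to 33314078, minus strand), it had no summit within 5 kb of its start. The nearest, of replicate 3 at 33299220, lay 474 bp past the 3′ end of TAPBP, inside RGL2 and 278 bp upstream of the RGL2 start. It was 14.9 kb from the TAPBP start, and its score of 3.16 ranked 4342 of 4430. The other replicate 3 summits within 50 kb of TAPBP were 140 bp downstream of the start of RPS18, a ribosomal protein gene (score 5.49, 27.5 kb from TAPBP), and 299 bp from an end of B3GALT4 (4.77, 22.3 kb). Replicates 1 and 2 had nothing nearer than 2714 kb and 1932 kb.

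CALR encodes calreticulin, the chaperone that holds the heavy chain during loading. It was the 1 gene of the 10 counted through replicate 1. On chromosome 19 (12938609 to 12944489, plus strand), the replicate 1 summit lay 1424 bp past the 3′ end. It was 7.30 kb from the CALR start and scored 5.09 (rank 904 of 1368). Replicate 3 had a summit 19.4 kb upstream, 68 bp downstream of the start of SYCE2, with a score of 3.08 (rank 4394), and replicate 2 none nearer than 1341 kb. No library had a summit within 5 kb of the CALR start.

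Counted once each, 13 summits lay in or within 50 kb of the 10 genes: 1 of replicate 1, 1 of replicate 2 and 11 of replicate 3. They fall at 13 separate places, and 0 of 13 matched a summit of another library within 200 bp. In the full lists, places of at least 2 libraries held 52.9%, 43.4% and 18.3% of the summits of replicates 1 to 3. A coding start was within 1 kb of 11 of the 13, and the remaining 2 were the replicate 1 summit of CALR and the summit 299 bp from an end of B3GALT4. Among all summits on assembled chromosomes, 35.3%, 23.2% and 48.9% of the 3 lists lay within 1 kb of a coding start. Of those 11, the nearest coding start was that of 1 of the 10 genes at 3 and that of another gene at 8. Just inside the limit of 50 kb was the PCK2 summit, 48.8 kb from PSME2. The nearest beyond 50 kb was a replicate 3 summit 96.6 kb from TAPBP. Next were summits 97.7 kb (replicate 1) and 98.3 kb (replicate 3) from ERAP1.

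The scores were low for their lists. Those of the 11 summits of replicate 3 ran from 3.08 to 7.12 with a median of 4.93, against 5.58 for the whole list, and 3 of 11 reached that median. The summits of replicates 1 and 2 scored 5.09 and 4.31, below the medians of 6.12 and 5.57. With only summits at or above the median of their list, 4 of 10 genes kept a summit within 50 kb (19.8% of all coding genes) and 2 of 10 within 5 kb (10.9%), namely B2M and ERAP1. With each list shortened to its 1368 best summits, the length of the shortest, 2 of 10 had a summit within 50 kb (18.2%) and within 5 kb (10.1%), ERAP1 and CALR.

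**Figure D4:**
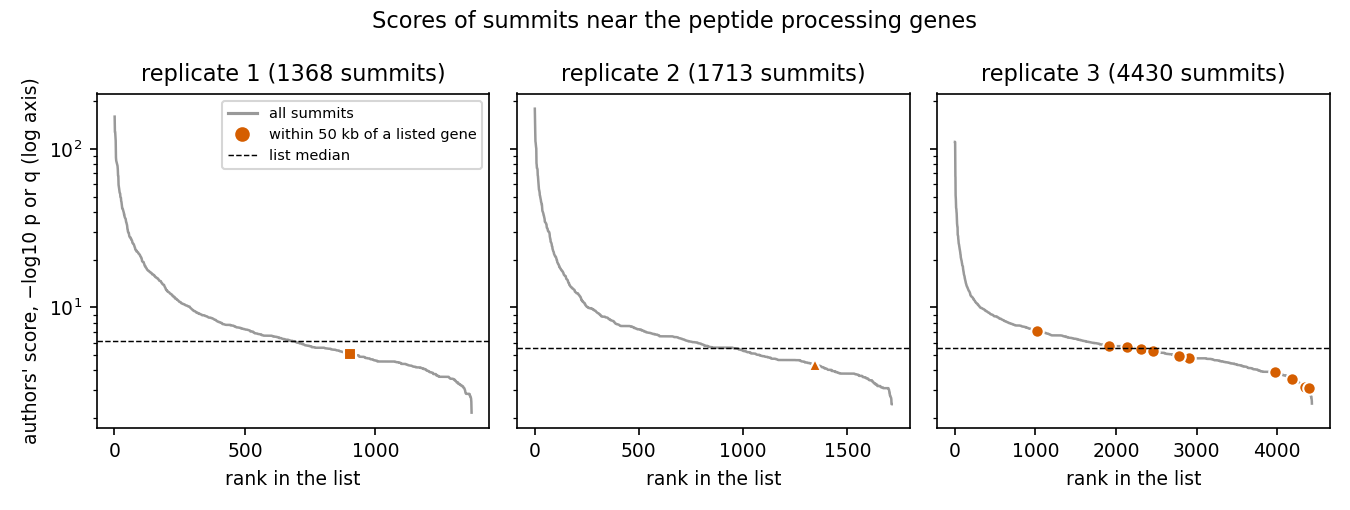
Authors' score (y axis, −log10 of a p or q value, log axis) against rank in each list (x axis), 1 panel for each library. Coloured points are the summits in or within 50 kb of the 10 genes, and 3 of the 11 in replicate 3, and neither of those in replicates 1 and 2, reach the list median (dashed).

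The distance to the nearest summit shows the same split between libraries. Its median over the 10 genes was 1892 kb in replicate 1, 1482 kb in replicate 2 and 2.11 kb in replicate 3. For all coding genes it was 911 kb, 1023 kb and 154 kb. The median of the 10 genes was thus the larger of the 2 in the shorter lists and the smaller in the longest. The 10 values are not separate, since neighbouring genes have nearly the same distance. In replicate 1, TAP1, TAP2, PSMB8 and PSMB9 stood at 3174, 3189, 3183 and 3168 kb, and PSME1 and PSME2 at 1071 and 1063 kb. Replicate 3 holds 4430 summits against 1368 and 1713, and the 10 genes were chosen with these lists in view. The part of list length was not tested beyond the shortened lists.

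**Figure D5:**
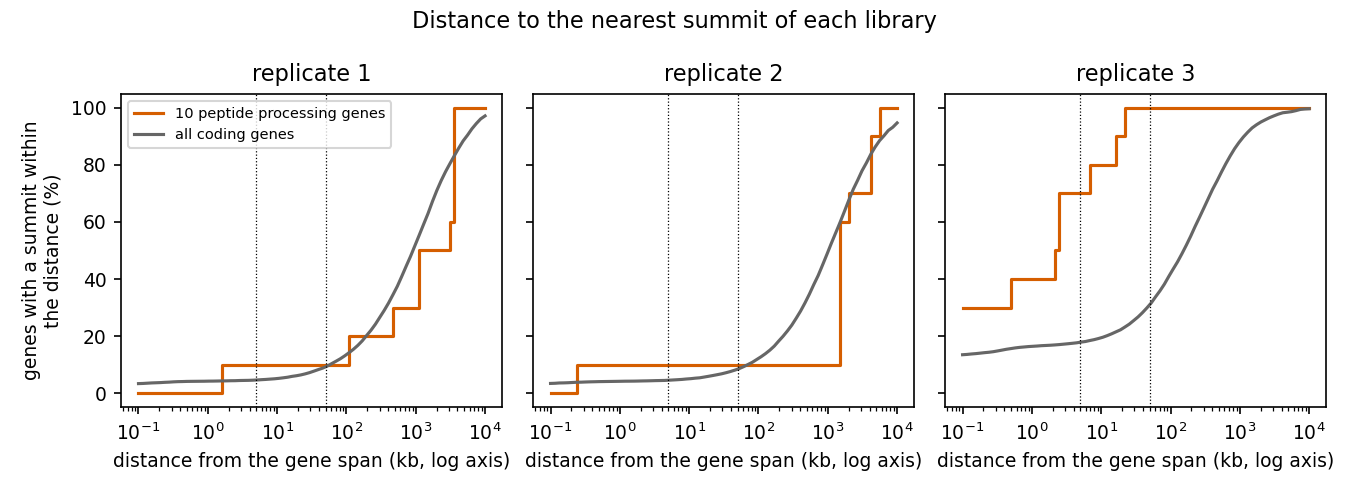
Percent of genes (y axis) with a summit within a given distance of the gene span (x axis, kb, log axis), for the 10 genes and for all 20037 coding genes, 1 panel for each library. Dotted lines stand at 5 and 50 kb: the 10 genes reach 10 of 10 within 50 kb in replicate 3, and 1 of 10 in replicates 1 and 2.

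Other genes of the pathway gave a mixed picture, described against the same 20.4% of coding genes within 5 kb in any library. Of the 6 MHC class I heavy chain genes, 1 had a summit within 5 kb: HLA-E, inside the gene, in replicate 3, with a score of 5.88. The 3 standard catalytic subunits that the immunoproteasome replaces, PSMB5, PSMB6 and PSMB7, had 0 of 3 within 50 kb (35.0% of all coding genes). Of 12 other processing and loading genes, 6 had a summit within 5 kb, and 0 of 12 in at least 2 libraries (3.47%). They were the cytosolic peptidase gene TPP2, with a replicate 3 summit 208 bp from its start and a score of 9.27 (rank 416), and the glycoprotein quality-control gene UGGT1, at 148 bp and 8.67 (rank 531). HSPA5, the chaperone BiP, had a replicate 3 summit at 187 bp with a score of 4.57, and PDIA3, a thiol chaperone of the loading complex, one inside the gene at 4.81. LNPEP had those described with ERAP1, and NPEPPS, a cytosolic aminopeptidase gene, had a replicate 2 summit 1666 bp from its start with a score of 3.62.

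The regulators of MHC class I transcription had 5 of 13 genes with a summit within 5 kb (20.4% of all coding genes), each with 1 or more summits within 1 kb of an own start (16.3%). NFYC, a subunit of the CCAAT-binding factor NF-Y, was the 1 gene with a place of at least 2 libraries (3.47%). Its summits lay 447, 4 and 178 bp from the start in replicates 1, 2 and 3, with scores of 4.40, 5.65 and 14.5, and those of replicates 2 and 3 were within 200 bp of each other. NFYA, another NF-Y subunit, had a replicate 2 summit at 109 bp (score 6.28) and a replicate 3 summit at 351 bp (score 10.8). NFKB1, an NF-kappa-B subunit, had a replicate 1 summit at 230 bp (3.55) and a replicate 3 summit at 122 bp (3.17). RELA, its partner, and IRF1, an interferon regulatory factor, had a replicate 3 summit each, at 43 bp (5.48) and 280 bp (3.92). Neither NLRC5, the coactivator of MHC class I genes, nor RFX5, RFXAP, RFXANK, IRF2, CREB1 and NFYB had one within 50 kb.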

How the data were processed

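The samples are 3 SOX4 ChIP-seq libraries of BT549, 1 group, named replicates 1 to 3 after their titles. The authors' deposited lists give 1-bp summits, made per library, with a score that is the −log10 of a p or q value. BWA, SAMtools and MACS2 are named, without versions, per the submitters' processing notes. Settings and any control are not given in the sources used here. Read depth and peak widths were not analysed here. Those notes name hg19, but contig names and positions are those of GRCh38, which was used.

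Summits were set against RefSeq GRCh38.p14 gene spans (20037 coding genes) and promoter starts (15842 of them) with Python 3.11.15 and pandas 2.3.3. Distance is 0 inside a gene. Summits at most 200 bp apart were joined into 1 place. The genes named are the 10, the genes at their summits and up to 6 of each other list within 5 kb. The genes, lists and motifs were chosen with earlier results of these data known. There is 1 group, so no test was run and no p-value is given. Exons and introns were not told apart. Some neighbouring and listed genes are not reported here. The counting steps were tested on simulated data.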

Additional observations from a re-analysis of the deposited data

How the results depend on the processing

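Replicate 3 and low scores carried the counts. Of the 10 genes, 10 had a summit within 50 kb. That was 4 with only summits at or above the list median, 6 with a score of 5 or more (24.3% of all coding genes) and 2 with each list shortened, and ranged from 2 to 10 when 1 library was left out. The 8 genes within 5 kb became 2, 3 (13.4%) and 2 under those filters, 3 with distance from the start site (17.2%), 4 with a window of 1 kb and 5 with 2 kb, and ranged from 2 to 8 with 1 library left out. The 13 places became 3, 6 and 3 under the filters, and ranged from 2 to 12 with 1 library left out. The 3 genes with a summit within 1 kb of an own start became 1 with each list shortened, and ranged from 0 to 3 with 1 library left out. In each range the lowest value is without replicate 3. The share of all coding genes was not computed for the windows of 1 and 2 kb. Nor was it for own starts with lists shortened or 1 library left out, so those counts have no background. The count of 0 genes within 5 kb of a place of at least 2 libraries was 0 in every setting run. Joining summits within 100 or 500 bp, and measuring from either gene end, changed no count by over 1.5 times. The share of all coding genes within 5 kb, 20.4%, was 19.3% outside chromosome 8, and ranged from 7.32% to 19.4% with 1 library left out. The share within 50 kb, 35.0%, was 33.6% outside chromosome 8 and 35.7% on the chromosomes of the 10 genes, and ranged from 13.6% to 33.4% with 1 library left out. The cause was not tested. Counts from own starts and shares without each library were chosen after seeing the data. No paired analysis was possible because the series has 1 group. Without read numbers, a site missed by a library cannot be told from a weak one.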
